A study of Mus musculus with 2 samples.

Results

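A set of 8 genes of iron handling, of the 32285 genes listed for each library, was followed across the cell classes of the neonatal mouse spinal cord. They were taken by symbol and not by a rule on measured values, though earlier results of these data were known. They are the plasma iron carrier transferrin (Trf), its receptor (Tfrc), the heavy and light ferritin chains (Fth1 and Ftl1), the iron exporter ferroportin (Slc40a1), the importer of ferrous iron DMT1 (Slc11a2), the haem-degrading enzyme haem oxygenase 1 (Hmox1) and the ferroxidase ceruloplasmin (Cp). Single-cell RNA-seq of whole spinal cords at postnatal day 4 gave 1 library from SMA mice (mSmn-/-, hSMN22tg/0) and 1 from Con mice (mSmn+/-, hSMN22tg/0), both of the FVB strain. SMA, spinal muscular atrophy, is a disease of motor neurons that follows from too little SMN protein. Both groups carried the human transgene, and the Con mice kept 1 intact mouse allele, so they were heterozygous and not wild type. Per the study's methods, several littermates of each group were pooled into its library.

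With 1 library in each group, no difference between SMA and Con has a replicate check, and no p-value was computed. Levels are given as CPM, the UMIs of a gene per 1000000 UMIs of its cell class in a library, where a UMI marks 1 captured RNA molecule. Ratios are log2 of SMA CPM over Con CPM, with exact 95% intervals that cover counting error only. A ratio was formed for a gene with at least 100 UMIs over both libraries in a class of at least 50 cells in each, and it was called higher or lower past 1.5-fold.

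The libraries held 26921 SMA and 25419 Con barcodes, with 85872075 and 97894084 UMIs. A total of 8163 barcodes were listed in both libraries, for a reason that was not settled here. The SMA copies were left out, which took away 6509 of the 13296 SMA barcodes within the limits, and 6557 of the kept Con cells carry shared barcodes. After the limits on genes and mitochondrial share, 6787 SMA and 8917 Con cells were kept, with medians of 6109 and 6229 UMIs per cell. Clustering gave 30 clusters. Of these, 28 were placed in 14 classes by markers, and 126 of the 140 markers were highest in their own class. The 11 classes compared between libraries held 62 to 1938 cells a library. Border-associated macrophage-like (38 SMA and 66 Con cells), monocyte-like (20 and 285) and neuron-like cells (44 and 26) are given by their levels alone. The cluster plotted as monocyte-like, led by S100a8, Ms4a7 and Lyz2, held unlike cells in the libraries. Its 9 monocyte markers summed to 10822 CPM in SMA and 10713 CPM in Con, its 8 neutrophil markers to 78999.8 and 20616 CPM, and its 9 macrophage markers to 249 CPM (2 of 9 detected) and 2949 CPM (9 of 9). With neutrophil markers above monocyte markers in both libraries, the name is not borne out in either, and its SMA and Con values are not set against each other.

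Iron enters the central nervous system across the brain and spinal cord endothelium. There, transferrin receptor on the vessel side takes up iron bound to transferrin, and ferroportin releases iron to the tissue with the help of ferroxidases such as ceruloplasmin. Inside cells, iron is held in ferritin, a shell built of heavy chains, which oxidise iron, and light chains, which favour its storage. Oligodendrocytes are known for a high iron content and for making transferrin, and microglia and macrophages recycle iron from haem. Much of this machinery is set after transcription: iron regulatory proteins bind a hairpin, the iron-responsive element, in the untranslated regions (UTRs) of several of these mRNAs, blocking translation from the 5′ UTR or protecting the mRNA from decay in the 3′ UTR. The levels below are of RNA and say nothing of that layer directly.

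The elements themselves are shown because they set apart the members that match a strict pattern of this hairpin, and the side of the coding sequence on which the match lies. The annotated protein-coding transcripts of GENCODE M21 (GRCm38) were searched on the sense strand for a C, 5 bases, the loop CAGTGN and 5 further bases that pair with the first 5 (A with T, G with C, G with T). Of the 21901 genes searched, 160 (0.731%) held such a match in a UTR, and 4 of the 8 members did. The matches are printed with 5 bases on either side and the 6 bases of the loop in capitals. Each lies within 1 exon.
Fth1 5′ UTR, chr19:9982733-9982759, plus strand: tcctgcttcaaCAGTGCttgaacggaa
Ftl1 5′ UTR, chr7:45459780-45459806, minus strand: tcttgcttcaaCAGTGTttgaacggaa
Slc40a1 5′ UTR, chr1:45925466-45925492, minus strand: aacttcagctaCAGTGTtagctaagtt
Tfrc 3′ UTR, chr16:32631220-32631246, plus strand: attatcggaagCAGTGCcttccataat
Tfrc 3′ UTR, chr16:32631599-32631625, plus strand: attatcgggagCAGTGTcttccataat
Tfrc 3′ UTR, chr16:32631664-32631690, plus strand: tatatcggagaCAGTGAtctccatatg
Tfrc 3′ UTR, chr16:32631711-32631737, plus strand: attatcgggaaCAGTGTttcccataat

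The storage chains and the exporter each held 1 match before the coding sequence, and the receptor held 4 after it. These letters were not found in the UTRs of Trf, Slc11a2, Hmox1 or Cp, which says only that this pattern is not there. A hairpin with an unpaired base among the 5 pairs would be missed, so these members may still carry one. On the same build, Trf lies at chr9:103204001-103230444 (minus strand), Slc11a2 at chr15:100387898-100425072 (minus), Hmox1 at chr8:75093621-75100589 (plus) and Cp at chr3:19957054-20009145 (plus). Fth1 spans chr19:9980598-9985098, Ftl1 chr7:45457944-45459884, Slc40a1 chr1:45908068-45926523 and Tfrc chr16:32608920-32632794.

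**Figure D1:**
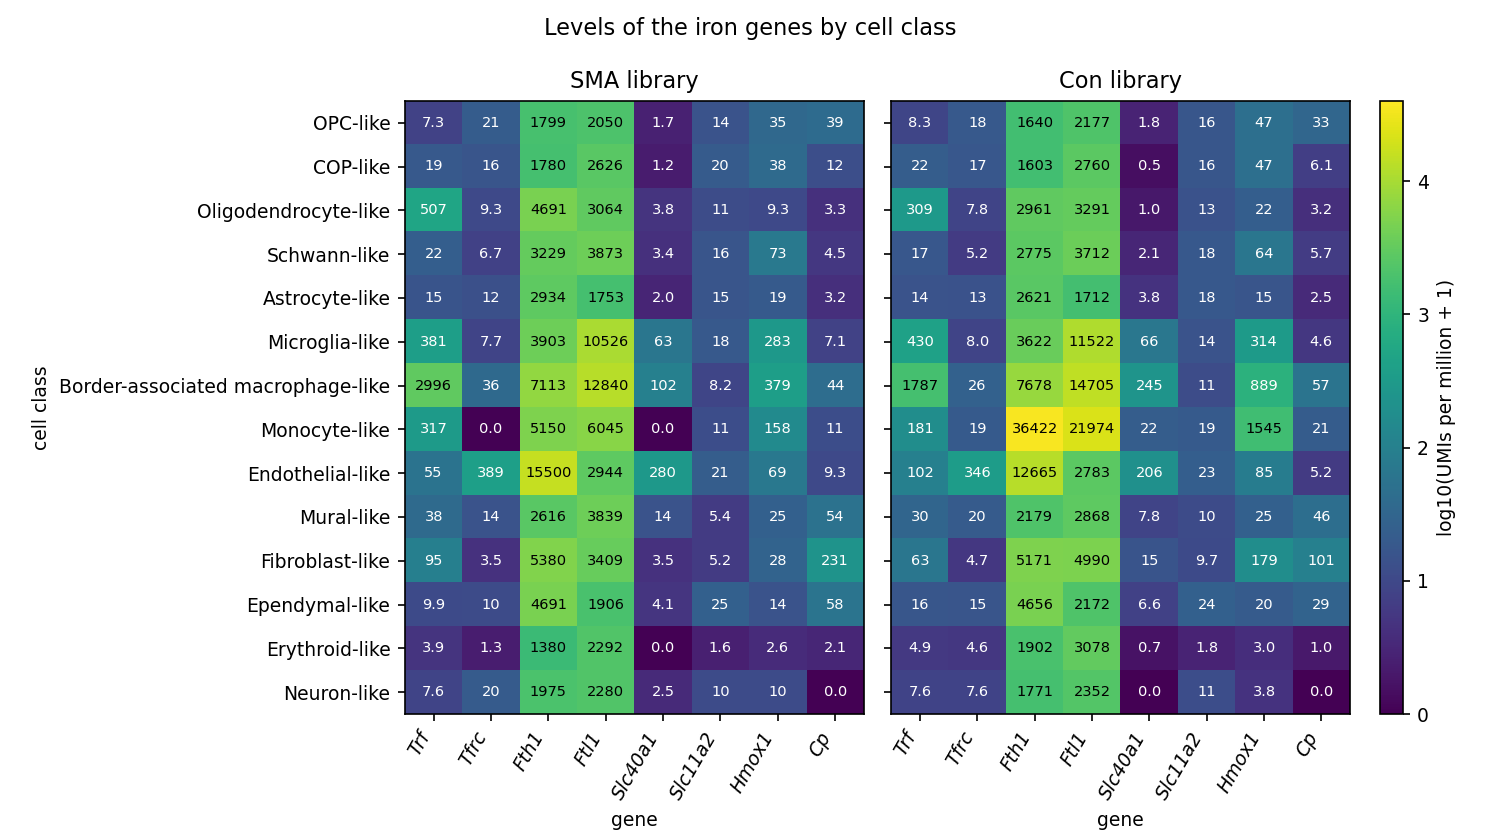
Levels of the 8 genes (columns) in the 14 cell classes (rows) of the SMA and Con libraries, as CPM with the colour on a log10 scale. Tfrc, Fth1 and Slc40a1 peak in endothelial-like cells among the compared classes, and Trf, Ftl1 and Hmox1 are high in microglia-like and macrophage-like cells.

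Endothelial-like cells, which showed all 10 endothelial markers at their highest, held the highest Tfrc, Slc40a1 and Fth1 levels of the 11 compared classes in both libraries. Tfrc stood at 389 CPM in SMA and 346 CPM in Con endothelial-like cells. In the other 10 classes Tfrc ran from 1.31 to 20.5 CPM in SMA and from 4.57 to 19.6 CPM in Con. This class alone held 64.6% of the SMA and 65.7% of the Con Tfrc UMIs of named cells. By CPM over all UMIs, the second class was OPC-like in SMA and mural-like in Con. Its interval overlapped that of the class after it. Haemoglobin took 868102 CPM of SMA and 877424 CPM of Con erythroid-like cells. On totals without haemoglobin and mitochondrial genes, these cells came second for Con Tfrc, at 44.5 CPM against 383 CPM in endothelial-like cells. Fth1 then stood at 12989 and 18525 CPM in erythroid-like and 16678 and 14002 CPM in endothelial-like cells, so its order turned in Con.

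With cells thinned to 1000 UMIs, a Tfrc UMI was found in 31.8% of SMA endothelial-like cells (105 of 330, exact 95% interval 26.8% to 37.1%) and in 24.3% of Con cells (109 of 448, 20.4% to 28.6%). Without thinning the shares were 83.0% and 72.5%, at median depths of 6885 and 7821 UMIs. In fibroblast-like cells the thinned shares were 0% of 62 SMA cells (exact 95% upper limit 5.78%) and 0.538% of 558 Con cells. The Tfrc ratio in endothelial-like cells was 0.17 (0.05 to 0.29), short of 1.5-fold. Ratios could be formed in 4 further classes, none was past 1.5-fold, and each of their intervals held 0.

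Ferroportin, the only known cellular iron exporter, shared this peak. Slc40a1 stood at 280 CPM in SMA and 206 CPM in Con endothelial-like cells, then at 63.3 and 66.2 CPM in microglia-like cells. The other 9 compared classes reached at most 14.3 CPM in SMA and 14.7 CPM in Con, and no UMI was counted in SMA erythroid-like cells, which allows up to 0.787 CPM. Border-associated macrophage-like cells held 102 CPM in SMA and 245 CPM in Con, from 37 and 159 UMIs. The endothelial-like ratio was 0.44 (0.29 to 0.59), the microglia-like ratio -0.06 (-0.26 to 0.13), and neither was called. A Slc40a1 UMI was present in 24.2% of thinned SMA and 17.9% of thinned Con endothelial-like cells, against 0.318% and 0.259% of astrocyte-like cells of similar median depth (5922.5 and 6105 UMIs, unthinned).

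Slc11a2, which moves ferrous iron out of endosomes and into cells, showed no such peak. Its level lay between 14.3 and 24.8 CPM in 7 of the 11 SMA classes, with ependymal-like cells highest in both libraries (24.8 CPM in SMA and 24.5 CPM in Con). In both libraries the intervals of neighbouring classes overlapped from the first place to the tenth. All 6 ratios that could be formed had intervals holding 0, the largest being 0.37 (-0.03 to 0.78) in microglia-like cells.

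Ferritin was the most abundant product of the set. Fth1 stood at 15500 CPM in SMA and 12665 CPM in Con endothelial-like cells, followed by fibroblast-like cells at 5380 and 5171 CPM. By CPM over all UMIs, Ftl1 was highest in microglia-like cells among the compared classes, at 10526 CPM in SMA and 11522 CPM in Con. Among the classes given by level alone, border-associated macrophage-like cells held 7113 and 7678 CPM of Fth1 and 12840 and 14705 CPM of Ftl1. Con cells of the S100a8, Ms4a7 and Lyz2 cluster held 36422 CPM of Fth1 and 21974 CPM of Ftl1 at a median depth of 1489 UMIs. On totals without haemoglobin and mitochondrial genes, Ftl1 stood at 21576 CPM in SMA and 29980 CPM in Con erythroid-like cells. Microglia-like cells then held 11499 and 12696 CPM, so they no longer led. Fth1 in erythroid-like cells then stood at 12989 and 18525 CPM, above the 5753 and 5510 CPM of fibroblast-like cells.

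The balance of the chains separated the classes. Fth1 made up 84.0% of ferritin UMIs in SMA endothelial-like cells and 82.0% in Con, and 27.0% and 23.9% in microglia-like cells. Ependymal-like cells (71.1% in SMA and 68.2% in Con) and astrocyte-like cells (62.6% and 60.5%) also held more heavy than light chain UMIs. OPC-like (46.7% and 43.0%), Schwann-like (45.5% and 42.8%), COP-like (40.4% and 36.7%), mural-like (40.5% and 43.2%) and erythroid-like cells (37.6% and 38.2%) held fewer. COP stands for committed oligodendrocyte precursor and OPC for oligodendrocyte precursor cell. The count is of 3′ ends and carries no length term, but the capture of the transcripts may differ, so the share is read between classes and libraries and not as a ratio of proteins.

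**Figure D2:**
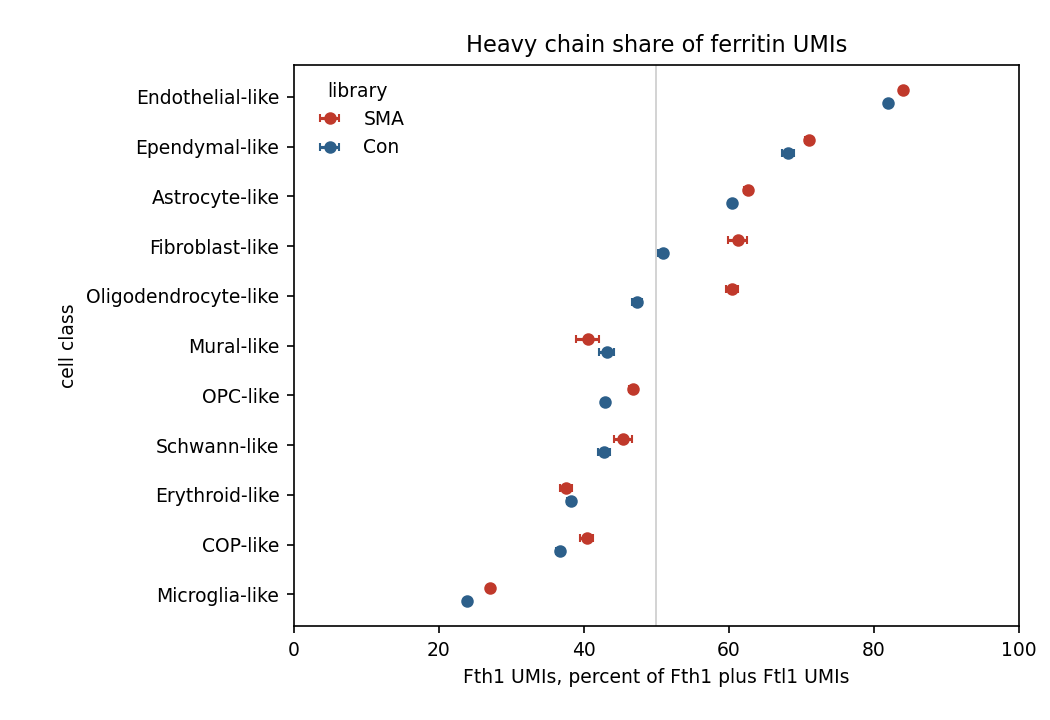
Fth1 UMIs as a percentage of Fth1 plus Ftl1 UMIs (x axis) by cell class (y axis), with exact binomial 95% intervals. Endothelial-like cells lie at the top with 84.0% in SMA and 82.0% in Con, microglia-like cells at the bottom, and oligodendrocyte-like cells stand at 60.5% in SMA and 47.4% in Con.

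The heavy chain share was higher in SMA in 9 of the 11 classes, with intervals apart in all 9, and lower in mural-like cells, where the intervals did not overlap, and erythroid-like cells, where they did. The gap was widest in oligodendrocyte-like cells (60.5% against 47.4%) and fibroblast-like cells (61.2% against 50.9%). In cells of at least 5000 UMIs these shares were 61.0% against 44.1% and 61.6% against 48.6%. A processed copy of the light chain gene, Ftl1-ps1, held UMIs equal to 0.515% to 1.09% of those of Ftl1 across the 11 classes. Reads that match both of these near-identical sequences were not counted here, so Ftl1 levels are uncertain by an unknown amount.

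The members' ratios are read against all genes of the class. In all, 53 ratios could be formed, of which 5 were higher and 2 lower past 1.5-fold (13.2%), where 8.38% of 67779 ratios over all genes were. None of the members passed 1.5-fold in OPC-like (7 members, background 3.26% of all genes), COP-like (6 members, 6.4%), Schwann-like (3 members, 10.8%), astrocyte-like (6 members, 4.82%), microglia-like (7 members, 4.8%), mural-like (3 members, 11.6%) or erythroid-like cells (2 members, 11.1%). Of 3 members, 2 passed in oligodendrocyte-like cells (background 12.7%), and 1 of 7 in endothelial-like cells (9.09%). Of 5 members, 3 passed in fibroblast-like cells, where 35.9% of all genes did, and 1 of 4 in ependymal-like cells (4.63%). With fibroblast-like cells left out, 4 of 48 ratios were past 1.5-fold (8.33%), against 6.63% over all genes.

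**Figure D3:**
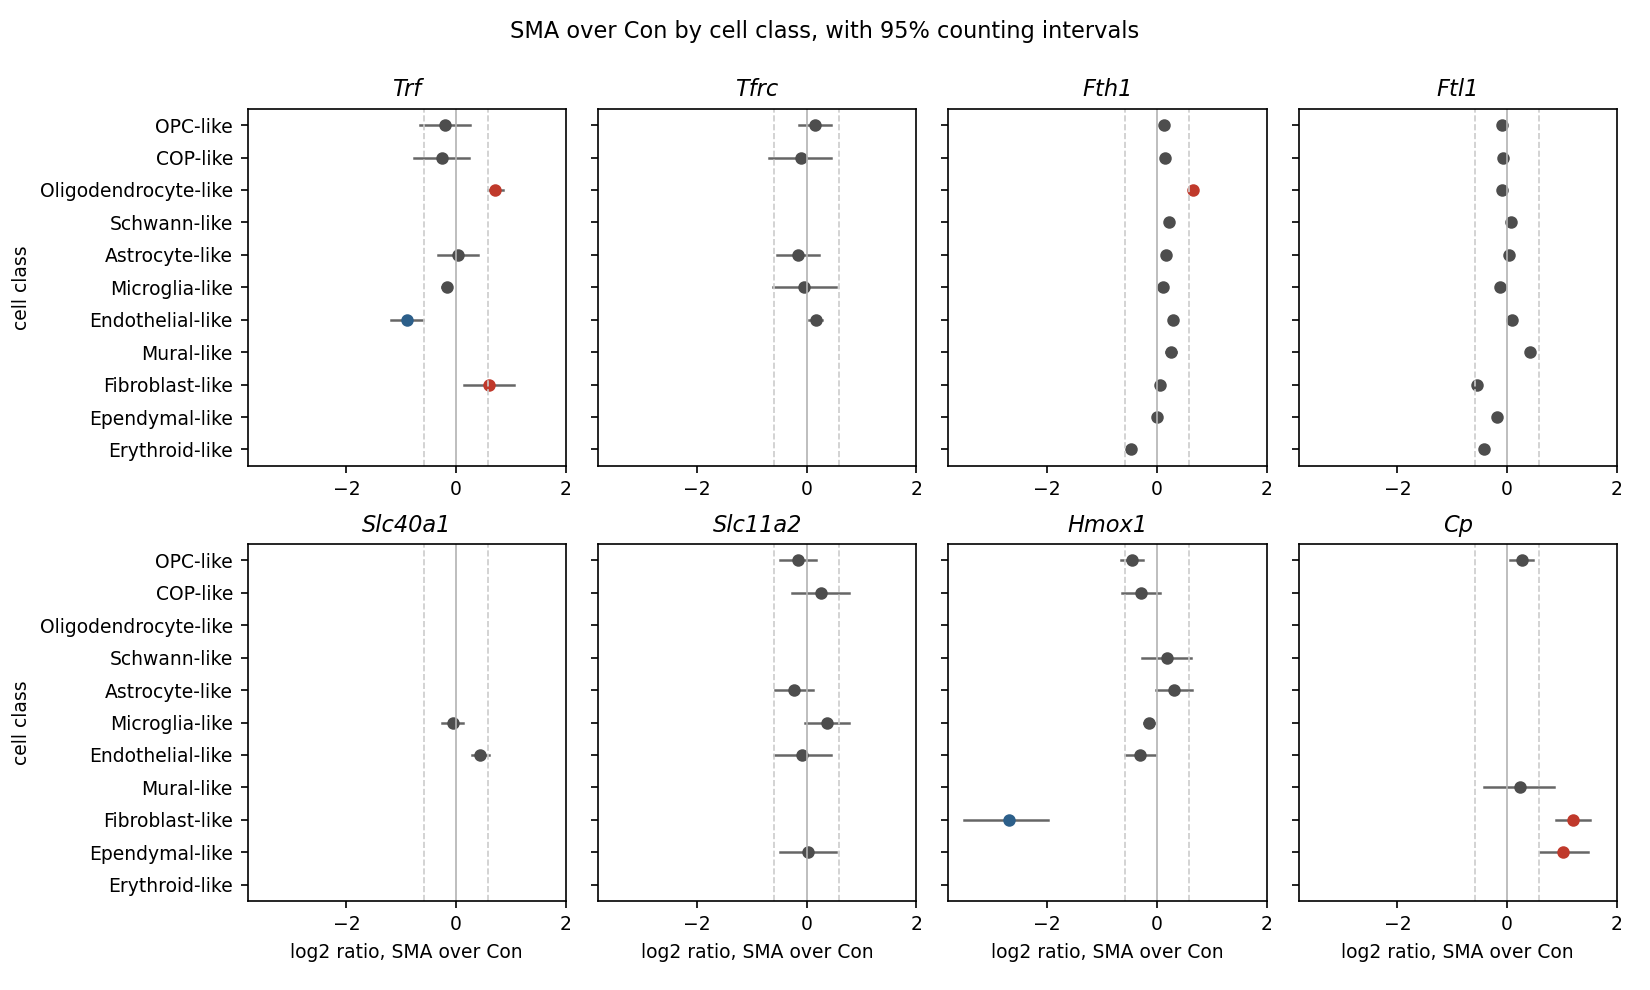
Log2 ratio of SMA over Con (x axis) by cell class (y axis) for each gene, shown where at least 100 UMIs were counted, with exact 95% counting intervals as lines and 1.5-fold as dashed lines. Red points are past 1.5-fold higher in SMA and blue points lower, the lowest being Hmox1 in fibroblast-like cells at -2.69.

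Fth1 lay on the higher side in SMA in 10 of 11 classes, with all intervals but that of ependymal-like cells off 0. Outside oligodendrocyte-like cells these differences ran from 0.01 in ependymal-like to 0.29 (0.27 to 0.31) in endothelial-like cells, and erythroid-like cells went the other way at -0.46 (-0.51 to -0.42). Ftl1 lay above 0 in 4 classes and below in 7. Its extremes were mural-like cells at 0.42 (0.35 to 0.49) and fibroblast-like cells at -0.55 (-0.62 to -0.48), and it was called in none. Erythroid-like cells were lower in SMA for both chains, with Ftl1 at -0.43 (-0.46 to -0.39). Their haemoglobin took 868102 CPM in SMA and 877424 CPM in Con, and with haemoglobin and mitochondrial genes taken out of the totals Fth1 stood at 12989 and 18525 CPM and Ftl1 at 21576 and 29980 CPM. On such totals the clusters differed: Fth1 was at -0.02 and Ftl1 at -0.17 in the cluster led by Hba-a1, Hbb-bs and Alas2 (212 SMA and 441 Con cells), and at -0.41 and -0.34 in the cluster led by Hba-a2, Hbb-bt and Alas2 (168 and 464 cells).

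Trf, the plasma iron carrier, had its highest level in border-associated macrophage-like cells (2996 CPM in SMA and 1787 CPM in Con), from 1091 and 1162 UMIs in 38 and 66 cells. Of the compared classes, oligodendrocyte-like cells led in SMA (507 CPM, against 309 CPM in Con) and microglia-like cells in Con (430 CPM, against 381 CPM in SMA). In Con the class after these was endothelial-like at 102 CPM and in SMA fibroblast-like at 95.5 CPM. By cells, 28.9% of thinned SMA and 35.7% of thinned Con microglia-like cells had a Trf UMI, against 0.982% and 0.675% of OPC-like cells, at median depths of 6878 and 7103.5 UMIs for the microglia-like and 5602 and 5766 UMIs for the OPC-like cells. Unthinned, the microglia-like shares were 87.0% and 89.2%.

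The call in oligodendrocyte-like cells was Trf at 0.72 (0.58 to 0.85), with 929 SMA and 954 Con UMIs, beside Fth1 at 0.66 (0.62 to 0.71) and Ftl1 at -0.10 (-0.15 to -0.06). Transferrin made by these cells and ferritin heavy chain are both part of the iron supply of myelin formation. The class joined 2 clusters. In the cluster led by Mog, Mobp and Ermn, genes of mature myelin, Trf stood at 720 CPM in 225 SMA cells and 345 CPM in 581 Con cells, a ratio of 1.06 (0.91 to 1.22), and Fth1 at 6677 and 3700 CPM, a ratio of 0.85 (0.80 to 0.90). In the cluster led by 9630013A20Rik, Cldn11 and Cemip2, Trf stood at 237 CPM in 60 SMA cells and 247 CPM in 91 Con cells, a ratio of -0.06 (-0.33 to 0.21), and Fth1 at 2177 and 1698 CPM, a ratio of 0.36 (0.26 to 0.45).

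**Figure D4:**
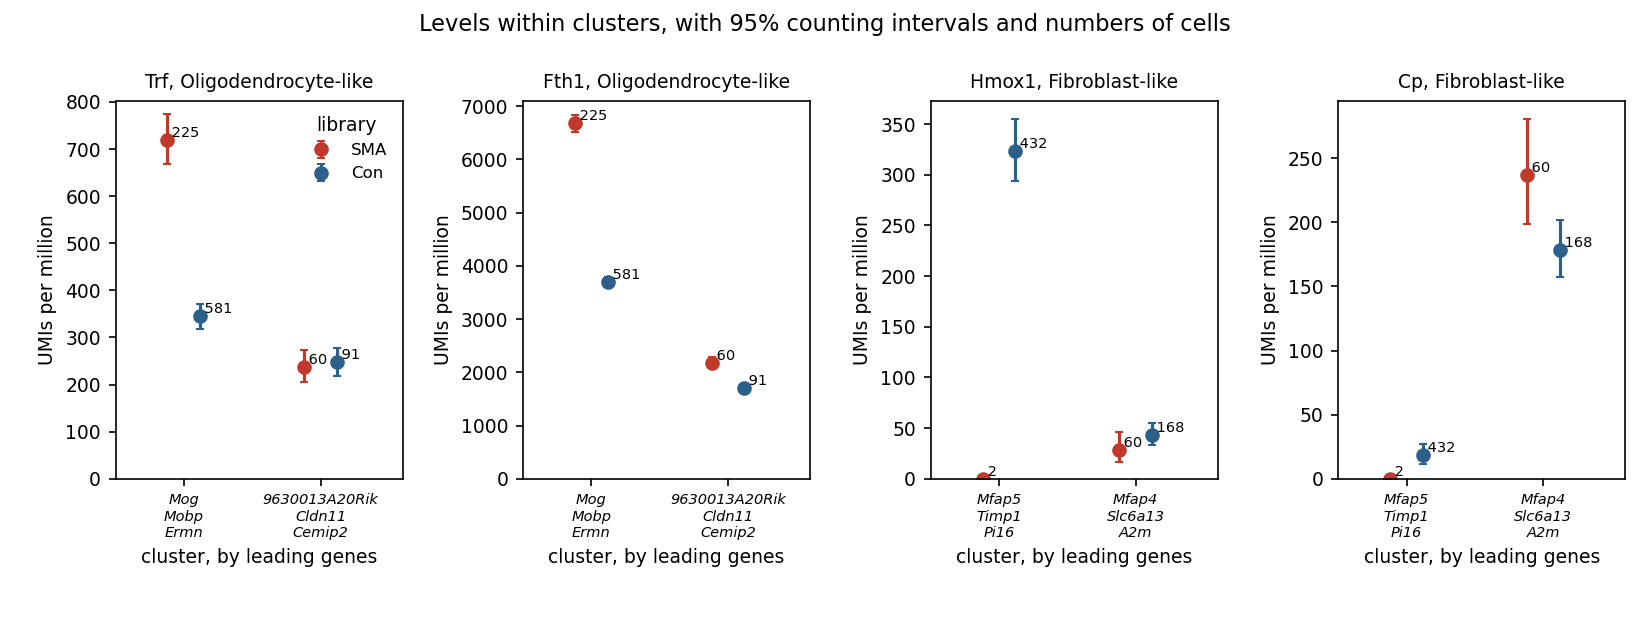
Levels of Trf and Fth1 in the 2 oligodendrocyte-like clusters and of Hmox1 and Cp in the 2 fibroblast-like clusters (x axis, by leading genes), as CPM (y axis) with exact Poisson 95% intervals and the number of cells beside each point; the points of the 2 SMA cells are at 0 and drawn without an interval. Trf separates the libraries in the Mog, Mobp and Ermn cluster (720 against 345 CPM) and not in the other (237 against 247 CPM), and the Mfap5, Timp1 and Pi16 cluster holds 2 SMA and 432 Con cells.

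Other values moved with this result. Haemoglobin transcripts took 100660 CPM of the Mog, Mobp and Ermn cluster in SMA and 249650 CPM in Con, and with haemoglobin and mitochondrial genes taken out of the totals the ratios there were 0.79 for Trf, 0.58 for Fth1 and -0.30 for Ftl1. Over the whole class, such totals gave 0.54 for Trf and 0.48 for Fth1, both short of 1.5-fold. The 12 oligodendrocyte markers summed to 58420 CPM in SMA and 40017 CPM in Con, and the 10 microglial markers, all detected, to 224 and 173 CPM. The 9 macrophage markers went the other way, at 11.5 CPM in SMA (6 of 9 detected) and 25.2 CPM in Con (7 of 9). In cells with no microglial or macrophage marker UMI, Trf stood at 280 CPM in 141 SMA cells and 248 CPM in 385 Con cells, and in the remaining cells at 674 and 372 CPM. Fth1 in the cells with no such UMI stood at 3920 and 2866 CPM, a ratio of 0.45, so neither call held there. The part of these differences in the result was not tested. With the SMA barcodes shared with Con kept in, the ratio was 1.57 for Trf and 1.04 for Fth1.

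In endothelial-like cells Trf went the other way, at 54.6 CPM in SMA (135 UMIs) and 102 CPM in Con (370 UMIs), a ratio of -0.90 (-1.19 to -0.61). The 10 alternatives that gave the ratio lay between -0.95 and -0.55, and the last, with the shared SMA barcodes kept in, was short of 1.5-fold. The 10 microglial markers summed to 221 CPM in SMA and 290 CPM in Con, the 9 macrophage markers (6 of 9 detected in each) to 119 and 127 CPM and the 12 oligodendrocyte markers to 751 and 1141 CPM. Haemoglobin took 12182 CPM in SMA and 35142 CPM in Con, and the ratio with haemoglobin and mitochondrial genes out of the totals was -0.94. Among cells with no microglial or macrophage marker UMI, Trf stood at 33.2 CPM in SMA (16 UMIs, 82 cells) and 91.3 CPM in Con (57 UMIs, 110 cells). The part of oligodendrocyte and erythroid RNA in the result was not tested.

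Hmox1, which opens haem to release iron, biliverdin and carbon monoxide, was highest in microglia-like cells among the compared classes, at 283 CPM in SMA and 314 CPM in Con. Border-associated macrophage-like cells held 379 and 889 CPM, and Con cells of the S100a8, Ms4a7 and Lyz2 cluster 1545 CPM. A Hmox1 UMI was present in 21.8% of thinned SMA and 22.1% of thinned Con microglia-like cells, and in 0.248% and 0.534% of erythroid-like cells. Haemoglobin took 868102 and 877424 CPM of erythroid-like cells, which leaves few other UMIs in a thinned cell. On totals without haemoglobin and mitochondrial genes, Hmox1 stood at 24.7 and 28.9 CPM in erythroid-like and 310 and 346 CPM in microglia-like cells. The Hmox1 ratio over all UMIs was -0.15 (-0.24 to -0.06) in microglia-like and -0.45 (-0.65 to -0.25) in OPC-like cells, neither past 1.5-fold.

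The call for Hmox1 was in fibroblast-like cells, at 27.8 CPM in SMA (16 UMIs) and 179 CPM in Con (501 UMIs), a ratio of -2.69 (-3.51 to -1.98). The libraries differed in which fibroblast-like cells they held. The cluster led by Mfap5, Timp1 and Pi16 held 2 SMA and 432 Con cells and 323 CPM of Hmox1 in Con. In the cluster led by Mfap4, Slc6a13 and A2m (60 SMA and 168 Con cells), Hmox1 stood at 28.5 and 43.2 CPM, from 16 and 62 UMIs, too few for a ratio here. Within that cluster Trf was 97.9 against 116 CPM (-0.24, -0.71 to 0.21), where the class as a whole had given 0.61 (0.14 to 1.05), and Ftl1 was -0.27 (-0.34 to -0.19). Fth1 there was 5453 against 3791 CPM, a ratio of 0.52 (0.46 to 0.59). Over the whole class, median depths were 8733.5 UMIs in SMA and 3481 UMIs in Con, and haemoglobin took 455 and 19683 CPM. The 10 fibroblast markers summed to 12069 and 26981 CPM, the 9 monocyte markers to 130 and 574 CPM. Microglial markers summed to 748 and 954 CPM and astrocyte markers to 2463 and 927 CPM. The part of these differences in the result was not tested.

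Cp, which oxidises iron for loading onto transferrin, was highest in fibroblast-like cells of both libraries among the compared classes, at 231 CPM in SMA and 101 CPM in Con. Ependymal-like cells (57.8 and 28.6 CPM), mural-like cells (53.6 and 45.9 CPM) and OPC-like cells (39.1 and 32.5 CPM) followed in SMA, with ependymal-like cells after the other two in Con. Border-associated macrophage-like cells, given by level alone, held 43.9 CPM in SMA and 56.9 CPM in Con, from 16 and 37 UMIs, while astrocyte-like cells held 3.22 and 2.50 CPM, from 26 UMIs in each library. All 4 ratios of Cp were above 0, with an interval that held 0 in mural-like cells. The ratio of 1.197 (0.888 to 1.4997) in fibroblast-like cells came to 0.41 (0.09 to 0.72) within the Mfap4, Slc6a13 and A2m cluster, at 237 and 179 CPM.

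In ependymal-like cells, which line the central canal, the Cp ratio was 1.02 (0.59 to 1.46), from 240 SMA and 56 Con UMIs. Both ependymal-like clusters leaned the same way, with 80.3 against 46.7 CPM in the cluster led by Crygn (0.78, 0.33 to 1.25) and 20.9 against 5.70 CPM, from 33 and 5 UMIs, in the cluster led by Ecrg4. In cells with no microglial or macrophage marker UMI the ratio was 0.31, short of 1.5-fold. The 10 other alternatives gave 0.88 to 1.07.

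Within OPC-like cells, Cp was lower in both libraries in cells with UMIs of Mki67, Top2a and other genes of dividing cells. Cells with at least 2 UMIs of 10 such genes after thinning held 24.3 CPM in SMA, against 44.2 CPM in the other OPC-like cells (-0.86, -1.25 to -0.49), and 21.4 against 36.2 CPM in Con (-0.76, -1.22 to -0.33). By cluster, Cp stood at 23.9 and 16.3 CPM in the cells led by Cenpa, Cenpf and Ube2c and at 24.3 and 23.7 CPM in those led by Hist1h2ap, Hist1h1b and Hist1h2ae. In the cluster led by the DNA replication genes Dtl, Ung and Mcm6 it was at 40.1 and 36.1 CPM, near the 47.9 and 39.9 CPM of the Pnlip, Pdgfra and Resp18 cluster, so the lower level did not extend to all cycling cells. The small Resp18, Slc22a3 and Bsn cluster, not led by cell cycle genes, held 28.6 and 24.1 CPM from 12 and 8 UMIs. Ftl1 showed a smaller difference in the same direction, at -0.21 (-0.25 to -0.16) in SMA and -0.24 (-0.28 to -0.19) in Con. Fth1 differed by 0.02 (-0.03 to 0.06) and -0.03 (-0.09 to 0.02). Tfrc was at -0.01 (-0.46 to 0.43) in SMA and -0.61 (-1.21 to -0.05) in Con, with an interval off 0 in Con alone. The cells with at least 2 such UMIs were deeper, with medians of 7036 and 6928 UMIs against 5602 and 5766 UMIs for all OPC-like cells.

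Genes of like pattern were sought over the 11 classes, as the highest Pearson r of log2(CPM + 1), averaged over the libraries, among 8761 genes. The classes share libraries and free RNA, so r is a description. For Tfrc these were Slc7a1 (0.92), Rasip1 (0.91) and Cldn5 (0.91), for Fth1 Bvht (0.91), Ly6a (0.91) and Ctla2a (0.90), and for Slc40a1 Fli1 (0.97), Smagp (0.96) and Tmem88 (0.96). For Ftl1 they were Ftl1-ps1 (0.96), Otulinl (0.84) and Spp1 (0.84), for Hmox1 Pabpc1 (0.96), Pmepa1 (0.94) and Colgalt1 (0.93), and for Trf Man1a (0.92), Tmem63a (0.92) and Plk3 (0.91). For Slc11a2 they were Adipor2 (0.96), Dhx40 (0.96) and Zfp608 (0.96), and for Cp Col26a1 (0.94), Rian (0.90) and Bicc1 (0.90). Haemoglobin took 868102 CPM of SMA and 877424 CPM of Con erythroid-like cells, which lowers the CPM of other genes there. The part of this class in r was not tested.

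The wider iron pathway was read through 6 lists of 47 genes, 46 of them in the files, of which 32 had a ratio in some class. Of 203 ratios, 5 were higher and 11 lower past 1.5-fold (7.88%, against 8.38% over all genes), and 7 of the 16 lay in fibroblast-like cells. With that class left out, 9 of 190 were past 1.5-fold (4.74%, against 6.63% over all genes). Their median ratio was -0.00, and that of the 53 member ratios 0.03. The fibroblast-like cluster led by Mfap5, Timp1 and Pi16 held 2 SMA and 432 Con cells. Ratios in fibroblast-like cells, here and in the lists below, therefore compare unlike cells.

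Among genes of iron uptake and reduction, 1 of 19 ratios was higher and 3 were lower (21.1%, against 8.38% over all genes and classes), and 2 of the 3 lower ones lay in fibroblast-like cells, where 35.9% of all genes passed. The zinc and iron transporter Slc39a14 was at 15.3 against 7.42 CPM in astrocyte-like cells (1.05, 0.63 to 1.48), with 0.44 in OPC-like cells. It was at 3.47 against 47.7 CPM in fibroblast-like cells (-3.78, -6.84 to -1.90). The ferrireductase Steap3 was lower in fibroblast-like cells, at 8.68 against 37.6 CPM (-2.12, -3.77 to -0.85). Cybrd1, also a ferrireductase, was at -0.72 (-1.02 to -0.42) in astrocyte-like and 0.43 (-0.24 to 1.13) in ependymal-like cells.

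Of 52 ratios for the control of iron proteins and cytosolic chaperones, 1 was higher and 2 lower (5.77%, against 8.38% over all genes), 1 of them in fibroblast-like cells (35.9% of all genes past 1.5-fold) and 2 in erythroid-like cells (11.1%). The chaperone Pcbp1 was at -0.71 in fibroblast-like cells. Ncoa4, the receptor that sends ferritin for breakdown, was at -0.65 (-0.99 to -0.32) in erythroid-like and -0.55 (-0.93 to -0.18) in oligodendrocyte-like cells. The highest ratio was Pcbp2 in erythroid-like cells (0.65, 0.19 to 1.10). Ireb2 (0.55, -0.04 to 1.15) and Fbxl5 (0.33, -0.12 to 0.78), both regulators of iron sensing, followed in oligodendrocyte-like cells. The export partners and hepcidin axis gave 3 ratios, 1 of them past 1.5-fold (33.3%, against 8.38% over all genes). That was Bmp6, a ligand that induces hepcidin, at 1.03 (0.60 to 1.43) in fibroblast-like cells, where 35.9% of all genes passed. Bmp6 was at -0.38 (-0.82 to 0.06) in ependymal-like cells and the ferroxidase Heph at 0.32 (-0.17 to 0.81) in astrocyte-like cells.

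Haem handling gave 56 ratios, 1 higher and 5 lower (10.7%, against 8.38% over all genes), with 2 of the 5 in fibroblast-like cells, where 35.9% of all genes passed. The haem transporter Slc48a1 was at 0.63 (0.45 to 0.80) in oligodendrocyte-like and 0.37 (-0.28 to 0.97) in fibroblast-like cells. Hmox2 was at 0.51 (0.17 to 0.85) in oligodendrocyte-like cells. The lowest were the haemopexin receptor Lrp1 in fibroblast-like cells (-0.95), Slc46a1 in ependymal-like cells (-0.85) and Blvrb in oligodendrocyte-like cells (-0.78). Mitochondrial iron and iron-sulphur cluster genes gave 73 ratios, 1 higher and 1 lower (2.74%, against 8.38% over all genes). Among their extremes were Isca1 in mural-like cells (0.70), Cisd1 in fibroblast-like cells (0.54) and Cisd2 in oligodendrocyte-like cells (0.50). On the lower side were Cisd2 in fibroblast-like cells (-0.67) and Slc25a37 in astrocyte-like cells (-0.25, -0.72 to 0.22). Neither Lcn2 nor Ltf, iron-binding secreted proteins, had a ratio.

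Targets of Nfe2l2, the factor of the oxidative stress response that also induces Hmox1, gave 56 ratios, 2 higher and 3 lower (8.93%, near the 8.38% over all genes), 2 of the 5 in fibroblast-like cells, where 35.9% of all genes passed. Slc7a11 was at 1.70 (1.44 to 1.96) in fibroblast-like, Srxn1 at 1.08 (0.51 to 1.67) in microglia-like and Gclm at 0.56 (-0.01 to 1.11) in Schwann-like cells. Txnrd1 was at -1.02 in fibroblast-like cells, and G6pdx (-0.90) and Gclc (-0.62) were lowest in astrocyte-like cells. Immediate early and heat-shock genes, which respond to tissue dissociation among other things, gave 18 higher and 15 lower of 90 ratios (36.7%, against 8.38% over all genes). Their highest were Egr1 (1.59), Fosb (1.40) and Fos (1.28) in COP-like cells. Their lowest were in fibroblast-like cells, with Atf3 at 1.74 against 58.0 CPM (-5.06, -10.4 to -2.57). Hspa1a (-3.21, -4.28 to -2.31) and Hspa1b (-2.92, -5.22 to -1.34) followed there. In that class all 10 of these genes were lower and, of all 4051 genes, 905 were lower and 549 higher (35.9% in all). The part of this difference between the libraries in the members' ratios was not tested.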

How the data were processed

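The deposited matrices hold raw counts of UMIs per gene and barcode, which the authors made with Cell Ranger (4.0.0 per the file headers, another version per the methods) on mm10 per the submitters' processing notes. The 8 genes and all lists were chosen with earlier results of these data known. Cells with 200 to 4000 genes and under 10% mitochondrial UMIs were kept, and 1 cluster of 1339 Con cells, whose median cell gave over 30% of its UMIs to ribosomal proteins, was left out. SMA barcodes also listed in Con were left out. Counts were clustered in scanpy 1.11.5 (2000 variable genes, 30 components, 20 neighbours, resolution 1), and clusters were named from markers among their 60 leading genes. A total of 253 SMA and 384 Con cells stayed unnamed. Doublets were limited by the 4000-gene maximum, with Scrublet scores as an alternative.

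UMIs were summed by class and library. Levels carry exact Poisson, shares Clopper-Pearson and ratios exact conditional binomial 95% intervals (scipy 1.17.1), which cover counting error only, and a count of 0 allows 3 counts. The ratio and its interval were run on Poisson counts simulated from the endothelial-like class. Such counts follow the interval's own assumption and hold no variation between cells, mice or libraries, so the run says nothing of that error. Named were the 8 genes in every class, the 3 lowest and 3 highest ratios of each list (1 of them is not reported here), the 3 genes most like each member and the leading genes of the clusters. Alternatives covered shared barcodes, mitochondrial limit, depth, weighting, centring, totals, resolution and doublets. Within-cluster and marker-free values were chosen after seeing the data. Sites and positions are from GENCODE M21 (GRCm38), whose release may differ from the authors' annotation.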

Additional observations from a re-analysis of the deposited data

Results flagged for a closer look

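The Trf ratio of SMA over Con was past 1.5-fold in opposite directions in different classes: 0.72 in oligodendrocyte-like cells and 0.61 in fibroblast-like cells, but -0.90 in endothelial-like cells. The difference between the classes was not tested, since each group has 1 library. The fibroblast-like value turned to -0.24 within the Mfap4, Slc6a13 and A2m cluster (60 SMA and 168 Con cells). The oligodendrocyte-like value came to -0.058 without the Mog, Mobp and Ermn cluster, and was past 1.5-fold in 7 of 13 alternatives. The endothelial-like value fell short at -0.55 with all kept SMA barcodes, and was past 1.5-fold in 9 of 10.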

How the results depend on the processing

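The number of member ratios past 1.5-fold was 7 of 53, where 8.38% of all gene ratios were. It came to 12 of 63 with all kept SMA barcodes (all genes 6.46%), 13 of 65 with mitochondrial shares up to 20% (8.11%), 12 of 66 at a minimum of 50 UMIs (12.1%) and 3 of 53 at 2-fold (2.12%), and stayed between 5 and 8 under the other planned settings. Among the 53 main ratios, all kept SMA barcodes left 5 of the 7 calls, with 0 newly past. The further calls there were in pairs that had no ratio before. The 20% limit left 5 of the 7 calls, with 2 newly past. Under settings chosen after seeing the data the number past 1.5-fold was 4 of 48 without fibroblast-like cells (6.63%), 4 of 52 without their Mfap5, Timp1 and Pi16 cluster (7.29%), and 1 of 27 in cells without microglial or macrophage marker UMIs (6.71%). There, the 3 called ratios that could be formed all fell short (Trf 0.17 and Fth1 0.45 in oligodendrocyte-like cells, Cp 0.31 in ependymal-like cells), and the 1 past 1.5-fold was Trf in COP-like cells (-0.90), not called before. The iron lists, with 16 of 203, gave 30 of 248 at 50 UMIs, 7 of 117 at 300 UMIs (all genes 5.21%), 4 of 203 at 2-fold, 9 of 190 without fibroblast-like cells and 7 of 97 in the marker-free cells, to be read against the same shares of all genes. A change of sign was seen for a pair of called ratios: Trf in fibroblast-like cells (-0.24 without that cluster) and Trf in oligodendrocyte-like cells (-0.058 without the Mog, Mobp and Ermn cluster). Trf and Fth1 in oligodendrocyte-like cells fell short of 1.5-fold with cells weighted equally (0.48 and 0.24), with the higher mitochondrial limit (0.51 and 0.54), with totals free of haemoglobin and mitochondrial genes (0.54 and 0.48) and at resolution 2 (0.56 and 0.58), and the cause was not tested. Centring on the class median, which moved ratios by over 0.1 in oligodendrocyte-like (0.13) and erythroid-like cells (0.11), also ended the call of Fth1 in oligodendrocyte-like cells (0.54), but not that of Trf (0.59). With all kept SMA barcodes Trf fell short in endothelial-like (-0.55) and fibroblast-like cells (0.53), and in the latter also in cells of at least 5000 UMIs (0.15). No paired analysis was possible because each group has 1 library. Members under 100 UMIs in a class, 35 of 88 pairs, allow no statement about a difference.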
